A study of Mus musculus with 10 samples.

Results

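The RAB genes encode a family of small GTPases that direct membrane traffic, and their chromatin accessibility was compared between 4 groups of mouse regulatory T (Treg) cells. Members were the protein-coding genes of GRCm38 whose symbol is Rab followed by a number and, where present, a letter: 59 genes. A region of the deposited table belonged to a RAB gene when it overlapped the gene span, or otherwise when that span was the nearest protein-coding one and lay within 100 kb. This gave 232 of 77076 regions, and 56 of the 59 genes had at least 1. Rab25, Rab27b and Rab3d had none.

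The libraries are ATAC-seq libraries, in which a transposase cuts and tags open DNA, from Treg cells of lymph nodes and spleen. The mice were chimeras, hosts rebuilt with a mixture of bone marrow from more than 1 donor. There were 3 libraries of wild-type (WT) cTreg cells, 3 of WT eTreg cells, 2 of Fntb-deficient (FntbKO) cTreg cells and 2 of FntbKO eTreg cells. cTreg and eTreg name the central and the effector Treg subsets, and the chimeric setting is shared by both genotypes. The Cre driver or promoter behind the deletion, the age of the mice, the cells the hosts still had and the number of mice behind a library are not given in the sources used here, and neither is a statement that libraries of a group came from separate animals, so the p-values measure only the spread between these libraries.

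RAB proteins switch between a GTP-bound and a GDP-bound state. Exchange factors (GEFs) load GTP, GTPase-activating proteins with a TBC domain return the protein to the GDP state, and the GTP form recruits effectors that move, tether or fuse vesicles. To sit in a membrane a RAB needs a prenyl lipid, which most members receive from the RAB geranylgeranyl transferase after an escort protein (Chm or Chml) presents them. Fntb encodes the beta subunit of farnesyltransferase, another prenyltransferase. In T cells RAB proteins are known for recycling of receptors through endosomes and for the release of granules.

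Total counts ran from 5058328 to 15328775 per library, and RAB regions held 0.389% to 0.412% of them. The region at the start of Fntb, chr12:76837192-76837915, served as a check of the genotype labels: it had 29.2 to 36.9 CPM (counts relative to library size, scaled by TMM) in the WT libraries and 7.48 to 13.1 CPM in the FntbKO libraries. On the first principal component of all regions the library WT cTreg 2 lay at 9.0, against -56.7 and -38.1 for the other WT cTreg libraries, and FntbKO cTreg 1 lay at -155.3, against -67.1 for FntbKO cTreg 2. Counts of RAB calls are therefore given with and without this pair. All 8 listed Treg markers had a region. Of the lists for other cells, 3 of 5 B cell markers (none at Ms4a1) and 3 of 5 myeloid markers (none at Lyz2 and Csf1r) had one. So did 5 of 5 CD8 T or NK markers, 4 of 4 dendritic markers and 3 of 4 erythroid markers.

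RefSeq promoter windows (250 bases before to 50 bases after a start, GRCm38.p6) were at hand for 48 RAB genes, 60 windows in all. A first set is shown because these windows lie under the RAB start regions that passed the test in the averaged comparison of the subsets. Each is printed 5′ to 3′ on the strand of the gene, with searched motifs in capitals.
Rab15, chr12:76822475-76822774, minus strand: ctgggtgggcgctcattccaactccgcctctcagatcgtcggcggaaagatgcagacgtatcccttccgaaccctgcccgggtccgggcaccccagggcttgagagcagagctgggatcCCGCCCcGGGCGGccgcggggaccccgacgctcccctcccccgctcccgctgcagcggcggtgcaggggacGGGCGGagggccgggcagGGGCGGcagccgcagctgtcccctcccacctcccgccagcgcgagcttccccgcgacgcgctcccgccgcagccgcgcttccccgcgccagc
Rab33a, chrX:48519035-48519334, plus strand: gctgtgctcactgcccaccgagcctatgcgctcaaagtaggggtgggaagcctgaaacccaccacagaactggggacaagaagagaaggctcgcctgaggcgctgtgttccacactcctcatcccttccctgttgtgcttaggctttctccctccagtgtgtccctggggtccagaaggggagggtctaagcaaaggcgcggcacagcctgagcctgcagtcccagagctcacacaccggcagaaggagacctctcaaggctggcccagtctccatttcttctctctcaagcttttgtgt
Rab39b, chrX:75578182-75578481, minus strand: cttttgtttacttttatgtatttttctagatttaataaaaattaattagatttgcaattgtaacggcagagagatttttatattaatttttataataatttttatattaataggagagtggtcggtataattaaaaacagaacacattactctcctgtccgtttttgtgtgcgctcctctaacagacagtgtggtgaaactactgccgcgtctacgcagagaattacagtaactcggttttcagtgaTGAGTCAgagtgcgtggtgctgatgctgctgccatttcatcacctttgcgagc

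A second set is shown as a contrast: these starts did not pass the test between the subsets, while a region inside the same gene did.
Rab11b, chr17:33760437-33760736, minus strand: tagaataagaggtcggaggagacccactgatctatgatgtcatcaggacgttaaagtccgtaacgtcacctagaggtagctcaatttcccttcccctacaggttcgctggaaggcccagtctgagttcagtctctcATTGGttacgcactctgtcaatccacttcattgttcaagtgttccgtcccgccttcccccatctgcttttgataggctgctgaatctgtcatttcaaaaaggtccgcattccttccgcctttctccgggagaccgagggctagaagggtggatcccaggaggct
Rab43, chr6:87812049-87812348, minus strand: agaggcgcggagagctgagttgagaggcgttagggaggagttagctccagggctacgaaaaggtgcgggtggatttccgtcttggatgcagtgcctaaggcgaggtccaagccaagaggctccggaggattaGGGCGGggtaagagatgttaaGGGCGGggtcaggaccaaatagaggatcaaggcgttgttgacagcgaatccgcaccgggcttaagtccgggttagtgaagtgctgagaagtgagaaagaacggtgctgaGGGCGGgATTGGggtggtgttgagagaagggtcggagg

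Capitals mark GGGCGG (the GC box) in the Rab15 window, TGANTCA (the AP-1 motif) in the Rab39b window, CCAAT in the Rab11b window, and CCAAT and GGGCGG in the Rab43 window, on either strand. None of the searched letters lies in the Rab33a window. GC content of these windows was 76.3% for Rab15, 58.7% for Rab33a, 35.7% for Rab39b, 51.3% for Rab11b and 57.7% for Rab43. Rab39b has the lowest value of the 60 RAB windows.

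Over all RAB windows, GGGCGG was in 68.3% against 35.7% of the 32851 windows of all genes, and CCAAT was in 43.3% against 37.4%. The 60 RAB windows belong to 48 genes and the wider set to 27025 genes, so a gene can count more than once. The wider set was not matched to the RAB genes. The E-box CACGTG was in 10.0% against 7.15%, the ETS motif CCGGAAG in 8.33% against 8.86%, TGANTCA in 5.0% against 7.81%, and TGACGTCA (the CRE) in 3.33% against 1.79%. Both strands were searched, overlaps between motifs were allowed, and the NRF1 motif was in 0 RAB windows against 0.971% of all. Median GC content was 61.2% in RAB windows and 52.7% in all windows. RAB windows over an accessible region held a median of 23.5 CpG dinucleotides and those over none a median of 9.0.

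Most RAB starts were open, at levels that spread widely. A start region was taken as the one with the largest overlap of the RefSeq window (41 genes). For genes without such a region it was the most covered region over either end of the span (7 genes). Strand was not used for these 7 genes, so such a region may lie at the far end of the gene. Per kb of region, the 48 start regions had a median of 50.7 CPM, from 5.71 CPM per kb at Rab40b, a member linked to ubiquitin ligases, to 200.6 CPM per kb at Rab8a, which drives exocytosis. Of all RAB regions 72.8% lay in a gene span, against 62.8% of all regions. RAB regions lie within 100 kb of a span by rule, and all regions do not, so these shares are not like for like. Over a RefSeq window of the gene lay 17.7% of RAB regions, against 13.2% of all regions over any gene's window. Over any gene's window lay 49 of 230 tested RAB regions and 10125 of 76216 tested regions. Median width was 350 bp for RAB regions and 353 bp for all, so region size was nearly alike.

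**Figure D1:**
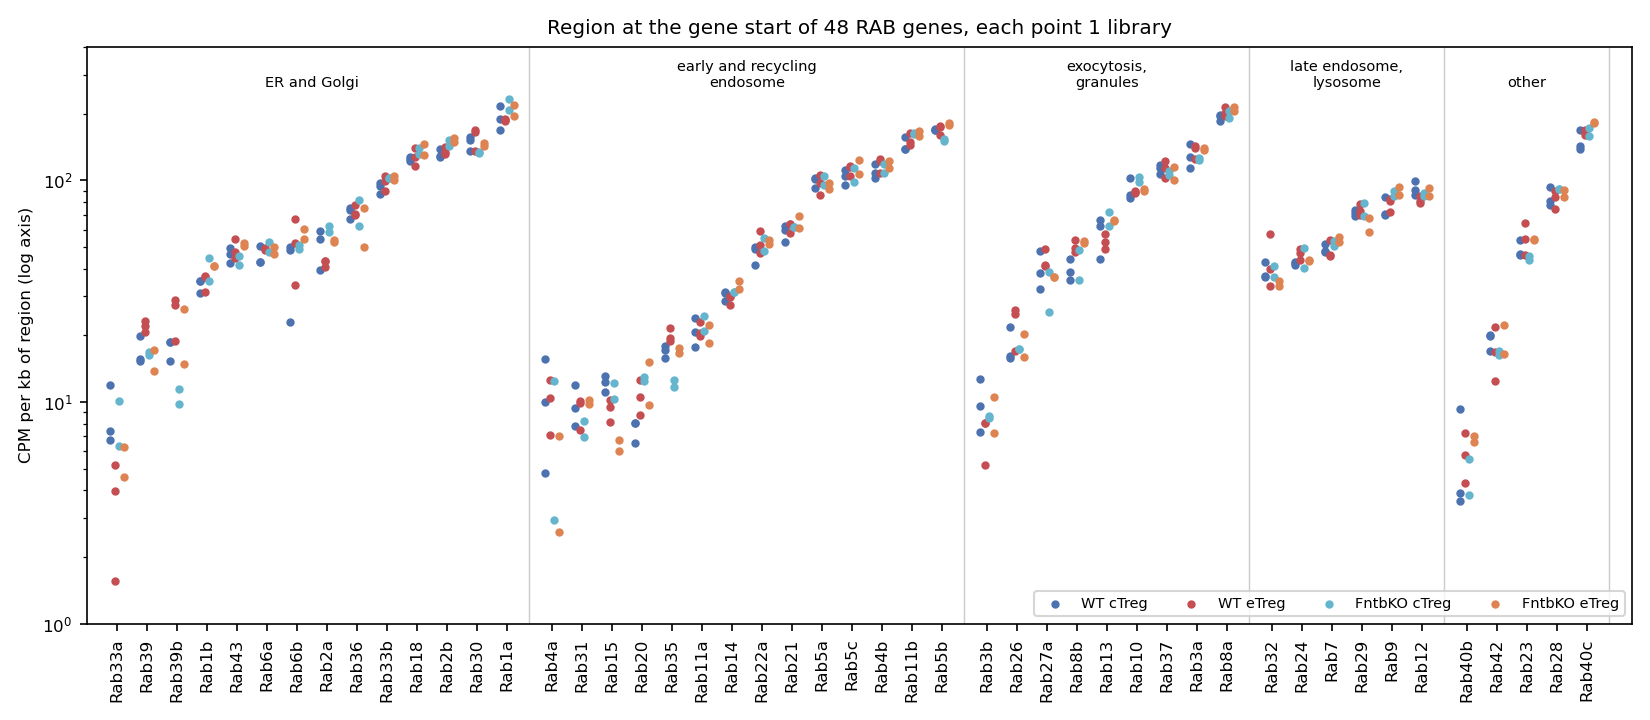
Accessibility of the start region of 48 RAB genes in CPM per kb of region (log axis), with each point 1 library, colour giving the group and genes ordered by mean level within 5 role groups. Where no region lay over a RefSeq window of the gene, the most covered region over either end of the span is shown. Means over libraries run from 5.71 CPM per kb (Rab40b) to 200.6 CPM per kb (Rab8a), and single libraries spread most in proportion at Rab33a (1.56 to 12 CPM per kb) and Rab4a (2.60 to 15.6 CPM per kb).

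In the ER and Golgi group (16 genes, 55 regions), the start of Rab1a, which acts between ER and Golgi, had the most covered region, with 149 CPM over all libraries and 126 to 174 CPM in single libraries. Rab6b, a Golgi member, had the most regions of the group (9). In the early and recycling endosome group (16 genes, 60 regions), the start of Rab5b, a regulator of early endosome fusion, led with 139 CPM (124 to 150.1 CPM), and Rab22a had the most regions (10). Per kb, the Rab1a start had 199 CPM and the Rab5b start 168 CPM, the highest of their groups.

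The exocytosis and granule group (12 genes, 70 regions) was led by the start of Rab8a with 170.5 CPM (157 to 183 CPM), and its Rab10, which delivers exocytic vesicles, had 14 regions, the most in the family. The late endosome and lysosome group (9 genes, 27 regions) had its most covered region at Rab29 with 48.7 CPM (40.1 to 54.6 CPM), and Rab12 had the most regions (6). Among the other 6 genes (20 regions), the start of Rab40c led with 169 CPM (142 to 190 CPM) and Rab23 had the most regions (6). Starts of Rab4a, Rab33a, Rab31, Rab3b and Rab40b were the least covered per kb.

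The first comparison asks how RAB accessibility differs between effector and central Treg cells of WT origin. Of 230 tested RAB regions, 5 passed the test (edgeR, adjusted p under 0.05), 3 higher and 2 lower in eTreg, or 2.17%, against 3.44% of all 76216 tested regions (1.83% higher and 1.61% lower). The 2 falls were inside Rab11b and Rab22a, genes of endosome recycling and early endosomes, and the rises were inside Rab43 and Rab20 and beside Rab4a. None was at a gene start: 0 of 48 start regions passed, and the median size of the log2 change was 0.09 at starts and 0.32 at the other 182 RAB regions. Most starts had more counts than the median RAB region (4.19 CPM). Fewer counts widen log2 changes, so these sizes are not compared like for like. Between the FntbKO subsets, with 0 RAB regions called, they were 0.12 and 0.43. Among all regions, 1.29% of those over a promoter window and 3.76% of the rest passed.

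Rab11b, which returns cargo from recycling endosomes to the surface, changed most clearly. Its region chr17:33752230-33752676, inside the gene span, had 14.66, 13.76 and 15.001 CPM in WT cTreg and 3.61, 7.97 and 4.41 CPM in WT eTreg. All eTreg libraries lay below all cTreg libraries. The log2 fold change was -1.41 (SE 0.24, adjusted p 0.00192), and the test was passed whichever library was left out. The start of Rab11b, chr17:33760208-33760816, whose sequence is shown above, had 92.9 ± 6.25 CPM in WT eTreg and 88.2 ± 6.34 CPM in WT cTreg (SD, n = 3 each), a log2 difference of 0.08 (SE 0.09, adjusted p 0.715).

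In Rab22a, a gene of early endosomes, the region chr2:173672319-173672705 had 11.73, 12.04 and 11.3 CPM in WT cTreg and 5.54, 6.77 and 6.11 CPM in WT eTreg. The groups did not overlap, and the spread within each was small. The log2 fold change was -0.92 (SE 0.21, adjusted p 0.0166), and the call was lost without WT cTreg 1, WT cTreg 3, WT eTreg 1 or WT eTreg 3, with adjusted p up to 0.0819. The Rab22a start, chr2:173659095-173660114, had 47.8 ± 4.79 CPM in WT cTreg and 53.5 ± 6.04 CPM in WT eTreg (adjusted p 0.504).

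Rab43, which acts in traffic through the Golgi, had a region at chr6:87810635-87811150 with 16.48, 12.04 and 12.04 CPM in WT cTreg and 29.2, 23.4 and 22.2 CPM in WT eTreg. Every eTreg library was above every cTreg library. The log2 fold change was 0.89 (SE 0.18, adjusted p 0.00733), and the call was lost without WT eTreg 1 or WT cTreg 3, with adjusted p up to 0.0746. The Rab43 start, chr6:87811291-87812389, lies beside this region in the same span and had 50.7 ± 3.91 CPM in WT cTreg and 53.7 ± 5.27 CPM in WT eTreg (log2 difference 0.08, adjusted p 0.742).

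In Rab20, a member found on endosomes and phagosomes, the region chr8:11463873-11464585 had 14.8, 21.7 and 10.6 CPM in WT cTreg and 27.95, 28.99 and 34.95 CPM in WT eTreg, without overlap. Its log2 fold change was 0.99 (SE 0.23, adjusted p 0.0268). Beside Rab4a, which serves rapid recycling from early endosomes, the region chr8:123797834-123798262 lies 7.584 kb below the lower end of the span, with Ccsap the next gene at 41.711 kb. It had 5.59, 9.64 and 5.07 CPM in WT cTreg and 13.0, 13.8 and 12.9 CPM in WT eTreg, again without overlap, and a log2 fold change of 1.0 (SE 0.27, adjusted p 0.0380). Each of these calls was lost without any of the WT libraries other than WT cTreg 2, with adjusted p up to 0.118 for Rab20 and 0.215 for Rab4a.

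**Figure D2:**
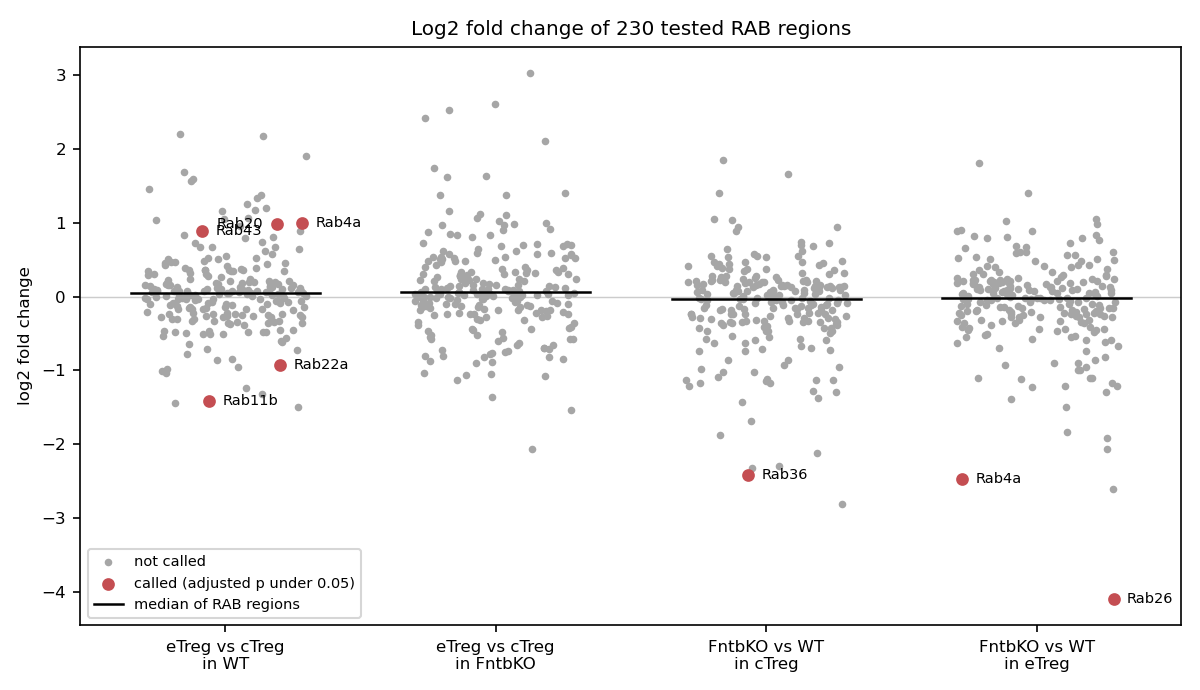
Log2 fold changes of the 230 tested RAB regions in the 4 comparisons of groups, each point 1 region, with regions called at adjusted p under 0.05 in red and named and the median as a black line. The medians lie between -0.04 and 0.06, and the called regions are 5, 0, 1 and 2 from left to right.

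Without WT cTreg 2 and FntbKO cTreg 1, 9 RAB regions passed in WT, the same 5 and regions of Rab2a, Rab33a, Rab4a and Rab6b. Leaving out single libraries gave 1 call (WT eTreg 1 or WT cTreg 3), 2 calls (WT cTreg 1 or WT eTreg 3), 3 calls (WT eTreg 2) and 8 calls (WT cTreg 2). Marker lists of other cells are small, so their counts rest on few regions. In the same comparison 1.83% of all regions were called higher and 1.61% lower in WT eTreg. Of the myeloid list (3 of 5 genes, with none at Lyz2 and Csf1r), 4 of 20 tested regions, at Cebpa, Itgam and Spi1, were higher in WT eTreg. The list's summed level was 80.3 to 106.7 CPM in WT cTreg and 122.6 to 130.1 CPM in WT eTreg. Of the CD8 T or NK cell list (5 of 5 genes), 3 of 34 regions, at Cd8a and Eomes, were lower in WT eTreg, with sums of 289.2 to 295.6 CPM in WT cTreg and 250.1 to 272.5 CPM in WT eTreg. Of the erythroid list (3 of 4, with none at Hba-a1), 1 of 6 regions, at Gata1, was lower, with sums of 37.2 to 39.4 and 29.4 to 34.6 CPM. Of the dendritic list (4 of 4), 1 of 27 regions was higher and 2 were lower, with sums of 245.1 to 303.8 and 268.4 to 301.5 CPM. The part of these cells in the RAB changes was not tested. The median log2 change of RAB regions was 0.05 and that of all regions -0.01.

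Between FntbKO eTreg and FntbKO cTreg, with 2 libraries on each side, 0 RAB regions passed edgeR's test, against 1.36% of all regions (0.966% higher and 0.39% lower). DESeq2 and limma-voom also called 0, and 28 RAB regions (12.2%) had an unadjusted p under 0.05 in edgeR, against 15.3% of all regions. Leaving out FntbKO cTreg 2 gave 4 calls, in Rab27a, Rab28, Rab2b and Rab31, from a fit with 1 FntbKO cTreg library, which is assumed to vary like the libraries of the other groups. The smallest p belonged to the same Rab4a and Rab11b regions as in WT and to a Rab31 region. The Rab11b region had 14.1 and 14.3 CPM in FntbKO cTreg and 8.41 and 7.28 CPM in FntbKO eTreg, a log2 difference of -0.87 (SE 0.28, adjusted p 0.114).

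The Rab4a region had 2.60 and 3.89 CPM in FntbKO cTreg and 4.41 and 9.55 CPM in FntbKO eTreg (log2 difference 1.12, from 0.39 to 1.51 without single libraries, SE 0.35, adjusted p 0.106). In Rab31, a member of the route between the trans-Golgi and endosomes, the region chr17:65740248-65740528 had 0 and 0.519 CPM against 2.40 and 1.77 CPM (log2 difference 2.61, SE 0.86, adjusted p 0.123), a fit that depends on the prior count, since FntbKO cTreg 1 is at 0. In none of these did the groups overlap, and none passed the test. They were picked for the smallest p, and with 2 libraries on each side a lack of overlap arises easily.

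The third comparison asks what loss of Fntb does in cTreg cells. Here 1 of 230 RAB regions passed (edgeR), lower in FntbKO, or 0.435%, against 0.568% of all regions, of which 0.378% were lower and 0.19% higher. It lies inside Rab36, a RAB of the Golgi, at chr10:75041769-75041997, with 6.70, 3.10 and 4.65 CPM in WT cTreg and 0.274 and 1.30 CPM in FntbKO cTreg. The groups did not overlap. The log2 fold change was -2.42 (SE 0.52, adjusted p 0.0229), and it was -4.07 without FntbKO cTreg 2.

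The Rab36 start, chr10:75036828-75037368, averaged 38.8 ± 2.38 CPM over 3 WT cTreg libraries and 38.9 ± 7.38 CPM over 2 FntbKO cTreg libraries (log2 difference 0.02, adjusted p 0.975). The Rab36 call was lost without WT cTreg 1, WT cTreg 3 or FntbKO cTreg 1, with adjusted p up to 0.396, and without WT cTreg 2 and FntbKO cTreg 1 together 0 RAB regions passed. DESeq2 called 2 RAB regions and limma-voom 0. In eTreg the Rab36 region had 3.13, 2.39 and 1.87 CPM in WT and 1.202 and 1.673 CPM in FntbKO, without overlap, a log2 difference of -0.74 (SE 0.53, adjusted p 0.604).

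The same question in eTreg cells gave 2 calls among 230 RAB regions (edgeR), both lower in FntbKO, or 0.87%, against 0.35% of all regions, of which 0.169% were lower and 0.181% higher. The first is inside Rab4a, at chr8:123807003-123807396. It had 8.79, 7.97 and 5.09 CPM in WT eTreg and 1.202 and 1.378 CPM in FntbKO eTreg, without overlap. The log2 fold change was -2.48 (SE 0.47, adjusted p 0.0158), and the call was lost without WT eTreg 1, FntbKO eTreg 1 or FntbKO eTreg 2, with adjusted p up to 0.204.

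The other is 6.682 kb above the upper end of Rab26, a RAB of secretory vesicles, at chr17:24540429-24540706, with Pkd1 the next gene at 7.983 kb. It had 2.17, 1.59 and 3.73 CPM in WT eTreg and 0 and 0.197 CPM in FntbKO eTreg, or 56 and 2 counts in all. Scaled for depth, the FntbKO level was 0.0569 of the WT level, with an exact 95% interval of 0.00673 to 0.215 that covers counting error only and treats read mates as independent. The test gave an adjusted p of 0.0466, and its fitted log2 change of -4.09 depends on the prior count (-7.34 without FntbKO eTreg 2, which leaves only a library at 0). The call was lost without WT eTreg 1, WT eTreg 3, WT cTreg 3, FntbKO eTreg 1 or FntbKO eTreg 2, with adjusted p up to 0.331.

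Rab26 was low in FntbKO cTreg too. There the region had 2.51, 3.10 and 3.17 CPM in WT and 0 and 0.648 CPM in FntbKO, from 66 and 10 counts (adjusted p 0.061). The Rab26 start, chr17:24533275-24533953, had 15.4 ± 3.32 CPM in WT eTreg and 12.3 ± 2.09 CPM in FntbKO eTreg (log2 difference -0.31, adjusted p 0.608). Both eTreg calls were kept without WT cTreg 2 and FntbKO cTreg 1, DESeq2 called 1 RAB region in eTreg, and limma-voom 0.

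**Figure D3:**
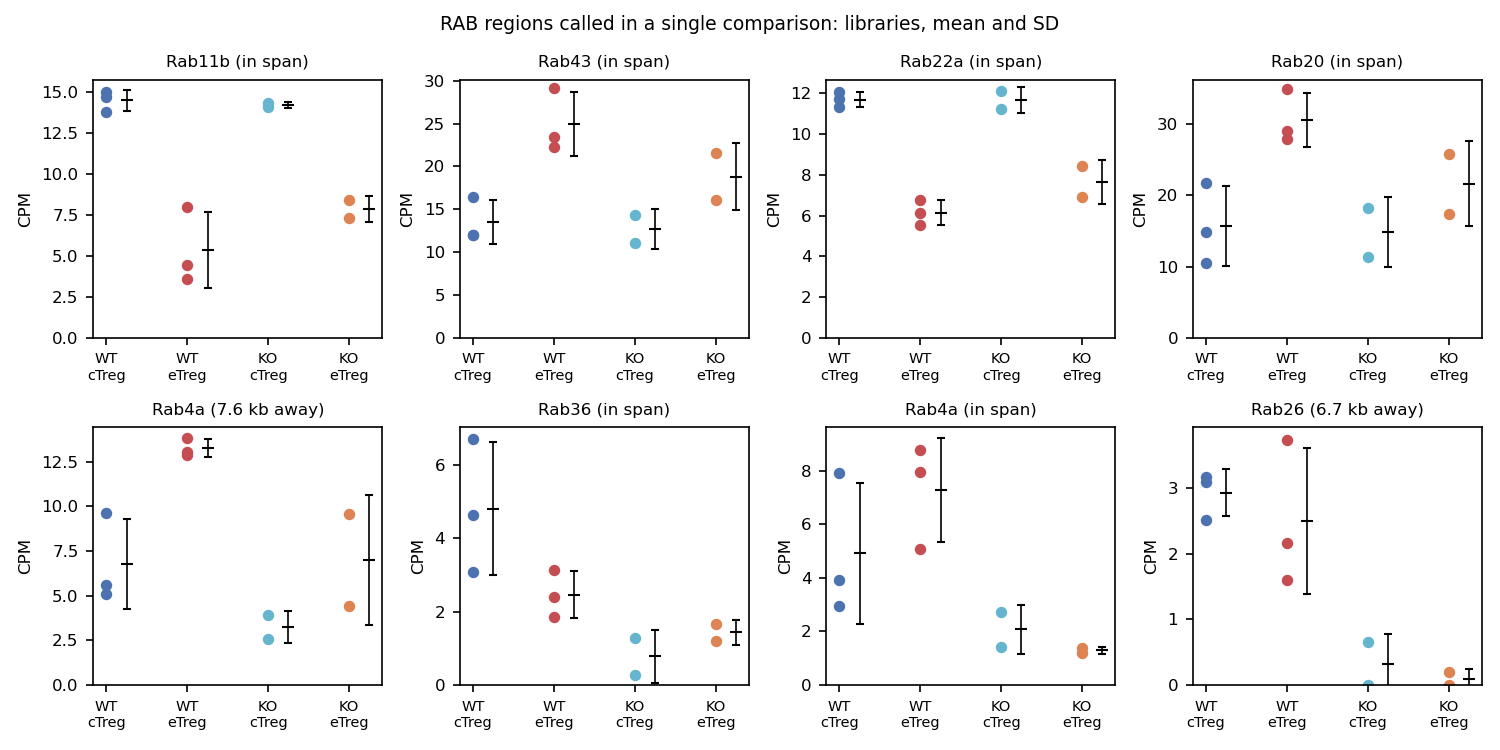
CPM of the 8 RAB regions called in a comparison of 2 groups, with points for libraries, and the mean and SD beside them; n is 3 for WT and 2 for FntbKO groups, and KO stands for FntbKO. For Rab11b, Rab43, Rab22a, Rab20 and the Rab4a region outside the span, eTreg and cTreg of WT do not overlap. For Rab36, Rab26 and the Rab4a region in the span, the FntbKO libraries lie below the WT libraries of the subset that was called. The regions were picked by the test on the same values, so the lack of overlap is no separate support.

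With 1 group mean for each of the 4 groups in the fit, 0 RAB regions passed a test of whether the subset difference depends on genotype, as for all regions (0%). DESeq2 and limma-voom called 0 as well, and 8 RAB regions (3.48%) had an unadjusted p under 0.05, against 4.07% of all regions. The smallest p belonged to a low region inside Rab30, a Golgi RAB, at chr7:92758160-92758466, with 0.838, 0.344 and 0.423 CPM in WT cTreg, 2.77, 1.79 and 1.53 CPM in WT eTreg, 0.957 and 0.519 CPM in FntbKO cTreg and 0.200 and 0.394 CPM in FntbKO eTreg. Its interaction was -2.98 (log2, SE 1.14, adjusted p 1.0). A difference between the RAB calls of WT and FntbKO cells, or of cTreg and eTreg cells, was therefore not shown.

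Averages over both genotypes or both subsets use all 10 libraries and were added after the data had been seen. For eTreg against cTreg averaged over genotypes, 19 RAB regions in 16 genes passed (edgeR), 13 higher and 6 lower, or 8.26%, against 11% of all regions, of which 6.14% were called higher and 4.84% lower. The regions called in WT were all among them, but the WT libraries are part of this average, so that is no separate support. The regions of Rab11b, Rab43 and Rab22a passed whichever library was left out, which none of the other 16 did. Their average log2 changes were -1.14 (SE 0.18), 0.73 (SE 0.14) and -0.78 (SE 0.17). Without WT cTreg 2 and FntbKO cTreg 1, 9 regions passed, 8 of the 19 and 1 of Rab2a.

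In the endosome group the average called 5 of 60 tested regions higher and 3 lower. For each role group the share to compare is that of all regions, 6.14% higher and 4.84% lower. Rab5a, the central RAB of early endosomes, rose at chr17:53488653-53489011, from 1.22 ± 0.139 to 3.62 ± 2.34 CPM in WT and from 0.994 ± 0.245 to 2.18 ± 1.38 CPM in FntbKO (average log2 change 1.38, SE 0.40, adjusted p 0.0247). The call was lost without WT eTreg 1, WT cTreg 3, FntbKO cTreg 1 or FntbKO eTreg 2, with adjusted p up to 0.345 and a change of 0.91 without the last. Its start, at 132 CPM over all libraries, had an average log2 difference of -0.06 (SE 0.07, adjusted p 0.680). The remaining rises were the Rab20 region, the Rab31 region at chr17:65740248-65740528 and 2 regions below Rab4a. Without FntbKO cTreg 2 the Rab31 change was 4.16 rather than 1.97, and without FntbKO eTreg 2 that of the Rab4a region at chr8:123797834-123798262 was 0.70 rather than 1.06.

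Rab15, a regulator of endocytic recycling, fell at its own start, chr12:76821972-76822806. The start had 10.33, 9.291 and 10.99 CPM in WT cTreg, 7.95, 8.57 and 6.79 CPM in WT eTreg, 8.62 and 10.2 CPM in FntbKO cTreg, and 5.01 and 5.61 CPM in FntbKO eTreg. All 5 eTreg libraries lay below all 5 cTreg libraries. The average log2 change was -0.60 (SE 0.18, adjusted p 0.0257). Leaving out any FntbKO library, WT cTreg 3 or WT eTreg 3 ended the call, with adjusted p up to 0.0936. Rab15 ends 14.641 kb below the span of Fntb.

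Of the 48 RAB starts, 3 were called on this average: Rab15, Rab33a and Rab39b, whose sequences stand above. Among all regions over a promoter window the share called was 5.22%, against 11.9% of the rest. The start of Rab33a, a Golgi RAB, at chrX:48519255-48519766, had 6.14, 3.44 and 3.80 CPM in WT cTreg, 2.65, 0.797 and 2.04 CPM in WT eTreg, 5.197 and 3.242 CPM in FntbKO cTreg, and 3.206 and 2.362 CPM in FntbKO eTreg. The eTreg libraries again lay below the cTreg libraries, by little in FntbKO, with an average log2 change of -0.96 (SE 0.32, adjusted p 0.0492).

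Rab39b, which acts in traffic from the ER and is also on the X chromosome, moved the other way at chrX:75578043-75578401, its only region. It had 6.70, 6.71 and 5.49 CPM in WT cTreg, 9.88, 6.77 and 10.4 CPM in WT eTreg, 4.103 and 3.501 CPM in FntbKO cTreg, and 9.42 and 5.31 CPM in FntbKO eTreg. Within each genotype the eTreg libraries were higher, while across genotypes the groups overlapped. The average log2 change was 0.71 (SE 0.22, adjusted p 0.0313). The Rab33a call was lost without 7 of the libraries taken singly (adjusted p up to 0.226) and the Rab39b call without 6 (adjusted p up to 0.196).

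In the exocytosis and granule group the average called 5 of 69 tested regions higher and 2 lower, against 6.14% and 4.84% of all regions. Rab27a, which docks lytic and secretory granules, rose at 2 places in its span. At chr9:73088975-73089982 it had 25.1, 29.9 and 28.1 CPM in WT cTreg, 32.8, 38.4 and 34.8 CPM in WT eTreg, 22.6 and 26.5 CPM in FntbKO cTreg, and 29.9 and 34.7 CPM in FntbKO eTreg (average log2 change 0.37, SE 0.10, adjusted p 0.0158). The eTreg libraries were higher within each genotype. At chr9:73060343-73060705 the average log2 change was 0.97 (SE 0.31, adjusted p 0.0427). The first call was lost without FntbKO cTreg 1 or FntbKO eTreg 2 (adjusted p up to 0.135) and the other without 8 of the libraries taken singly (up to 0.222), with a change of 1.97 without FntbKO cTreg 2.

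Other rises in this group were inside Rab10 at chr12:3291049-3291353 (1.47, SE 0.40, adjusted p 0.0165), inside Rab8b at chr9:66899553-66899931 (0.66, SE 0.19, adjusted p 0.0241), and inside Rab37, a RAB of mast cell granules, at chr11:115133836-115134140 (1.08, SE 0.34, adjusted p 0.0379). The Rab37 region also lies in the span, and over a promoter window, of Cd300lf. Rab3c, a RAB of regulated exocytosis, fell at 2 regions below its span. At chr13:110039213-110039540 the average log2 change was -0.68 (SE 0.21, adjusted p 0.0317; -1.14 without FntbKO eTreg 2), and at chr13:110048765-110049230 it was -0.59 (SE 0.18, adjusted p 0.0334).

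In the ER and Golgi group the average called 2 of 54 tested regions higher and 1 lower, and in the other 6 genes 0 of 20. In the late endosome group it called 1 of 27 tested regions, inside Rab7b, at chr1:131698943-131699155. Rab7b serves the way from late endosomes back to the Golgi. The region had 0.279, 1.204 and 0.423 CPM in WT cTreg, 1.69, 1.59 and 2.21 CPM in WT eTreg, 0.684 and 0.389 CPM in FntbKO cTreg, and 0.801 and 2.16 CPM in FntbKO eTreg, a low level throughout (average log2 change 1.59, SE 0.52, adjusted p 0.0446). Without single libraries the number of RAB calls on this average fell to 5 (FntbKO cTreg 1), 6 (FntbKO eTreg 2), 7 (WT cTreg 3), 9 (WT eTreg 3) and 10 (WT eTreg 1), and it rose to 28 without WT cTreg 2.

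**Figure D4:**
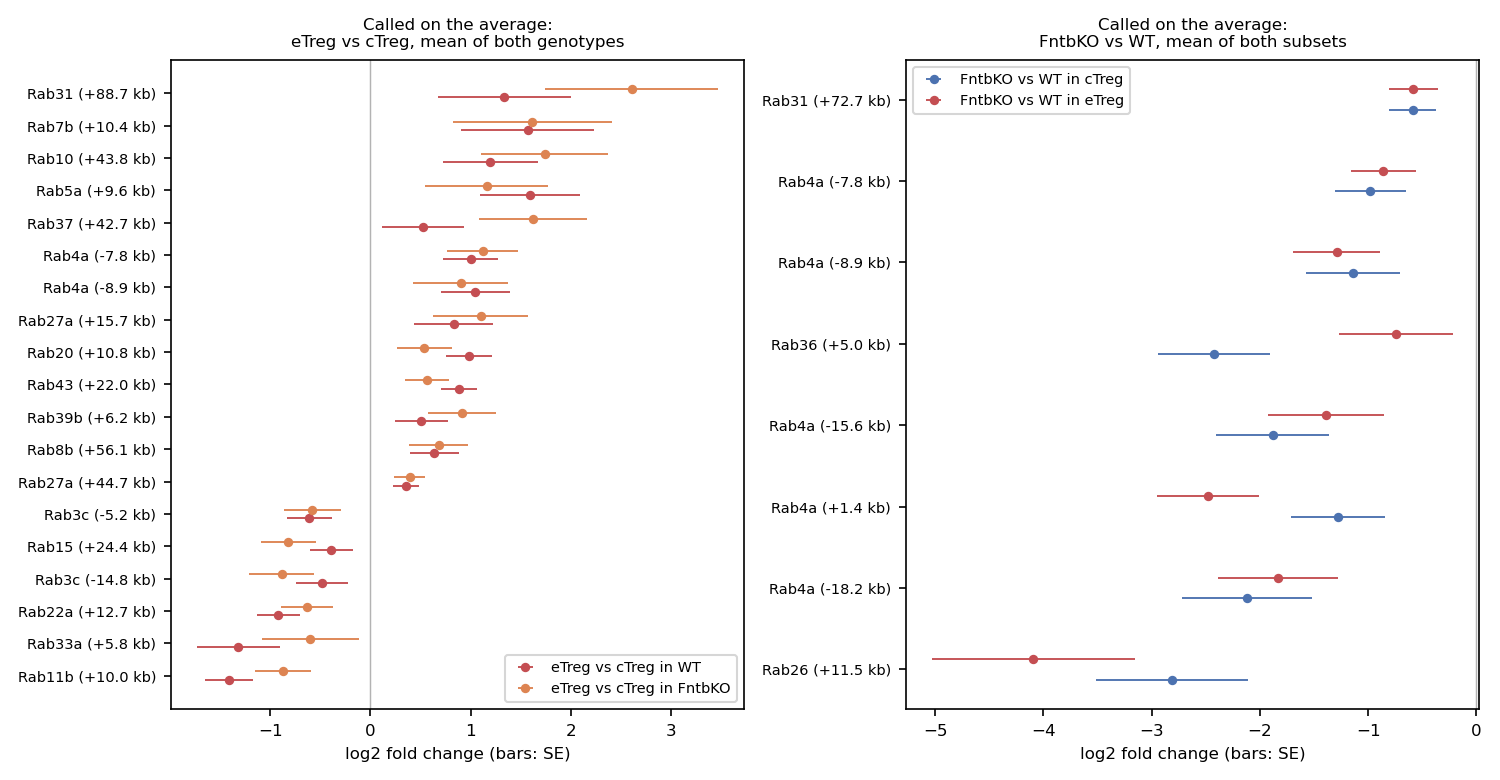
Log2 fold changes with SE of the RAB regions called on an average: left, eTreg against cTreg, shown apart for WT and FntbKO cells; right, FntbKO against WT, shown apart for cTreg and eTreg cells. The distance after each gene is that of the region's centre from the lower-coordinate end of the span. Each region has the same sign in both of the comparisons averaged. The regions were picked on that average, so the shared sign is no separate support.

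Averaged over both subsets, FntbKO against WT called 8 RAB regions, all lower in FntbKO, in Rab4a, Rab26, Rab36 and Rab31 (edgeR), or 3.48%, against 3.99% of all regions, of which 2.17% were called lower and 1.82% higher. DESeq2 called 8 and limma-voom 10. The largest of these was at Rab26, an average log2 change of -3.45 (adjusted p 0.000912, SE 0.58), which depends on the prior count (-5.79 without FntbKO cTreg 2), and no WT library overlapped a FntbKO library. At Rab36 the average was -1.58 (adjusted p 0.0138, SE 0.37), again without overlap, and this call was lost without FntbKO cTreg 1, FntbKO eTreg 1 or FntbKO eTreg 2 (adjusted p up to 0.0716); the change was -2.41 without FntbKO cTreg 2.

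In Rab31 a further region, chr17:65724259-65724632, had 11.4, 18.6 and 15.2 CPM in WT cTreg, 14.7, 13.9 and 16.6 CPM in WT eTreg, 10.1 and 9.85 CPM in FntbKO cTreg, and 10.4 and 9.74 CPM in FntbKO eTreg. All FntbKO libraries lay below all WT libraries, and the subsets were alike within each genotype. The average log2 change was -0.59 (SE 0.16, adjusted p 0.0311), a call lost without 8 of the libraries taken singly, with adjusted p up to 0.121.

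Rab4a held 5 of the 8 calls. It has 8 regions, from 17.984 kb below its span to 0.245 kb above it, and summed over them the libraries had 29.6, 42.8 and 20.4 CPM in WT cTreg, 47.6, 45.3 and 39.5 CPM in WT eTreg, 18.7 and 14.5 CPM in FntbKO cTreg, and 14.8 and 25.1 CPM in FntbKO eTreg. WT eTreg had the highest mean (44.1 ± 4.15 CPM), WT cTreg 2 lay among its libraries, and WT cTreg 3 lay below FntbKO eTreg 2. The sum is a description of a gene picked for its calls and was not tested.

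The Rab4a region inside the span, chr8:123807003-123807396, had 3.91, 7.91 and 2.96 CPM in WT cTreg and 2.74 and 1.43 CPM in FntbKO cTreg, beside the eTreg values given above. No WT library overlapped a FntbKO library. The average log2 change was -1.88 (SE 0.32, adjusted p 0.00104).

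At chr8:123787451-123787862 the libraries had 3.07, 5.51 and 1.58 CPM in WT cTreg, 6.26, 4.68 and 3.39 CPM in WT eTreg, 1.09 and 0.519 CPM in FntbKO cTreg, and 0.401 and 1.97 CPM in FntbKO eTreg (average log2 change -1.98, SE 0.41, adjusted p 0.00655). WT cTreg 3 lay below FntbKO eTreg 2. Like the Rab26 region and the Rab4a region in the span, this one passed whichever library was left out.

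The other Rab4a calls were at chr8:123790057-123790375 (average log2 change -1.63, SE 0.37, adjusted p 0.0122), chr8:123796716-123797143 (-1.22, SE 0.30, adjusted p 0.0183) and chr8:123797834-123798262 (-0.92, SE 0.22, adjusted p 0.0191). These calls were lost without FntbKO cTreg 1 or FntbKO eTreg 1, and that of the last also without WT cTreg 2 (adjusted p up to 0.114). The last of these is the region that was higher in WT eTreg than in WT cTreg. The Rab4a region over the lower end of the span, chr8:123805734-123806041, had 3.12 ± 1.67 CPM in WT cTreg, 3.09 ± 0.840 CPM in WT eTreg, 2.37 ± 2.07 CPM in FntbKO cTreg and 1.48 ± 0.964 CPM in FntbKO eTreg (average log2 difference -0.70, SE 0.41, adjusted p 0.362). Its groups overlapped, and it did not pass.

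**Figure D5:**
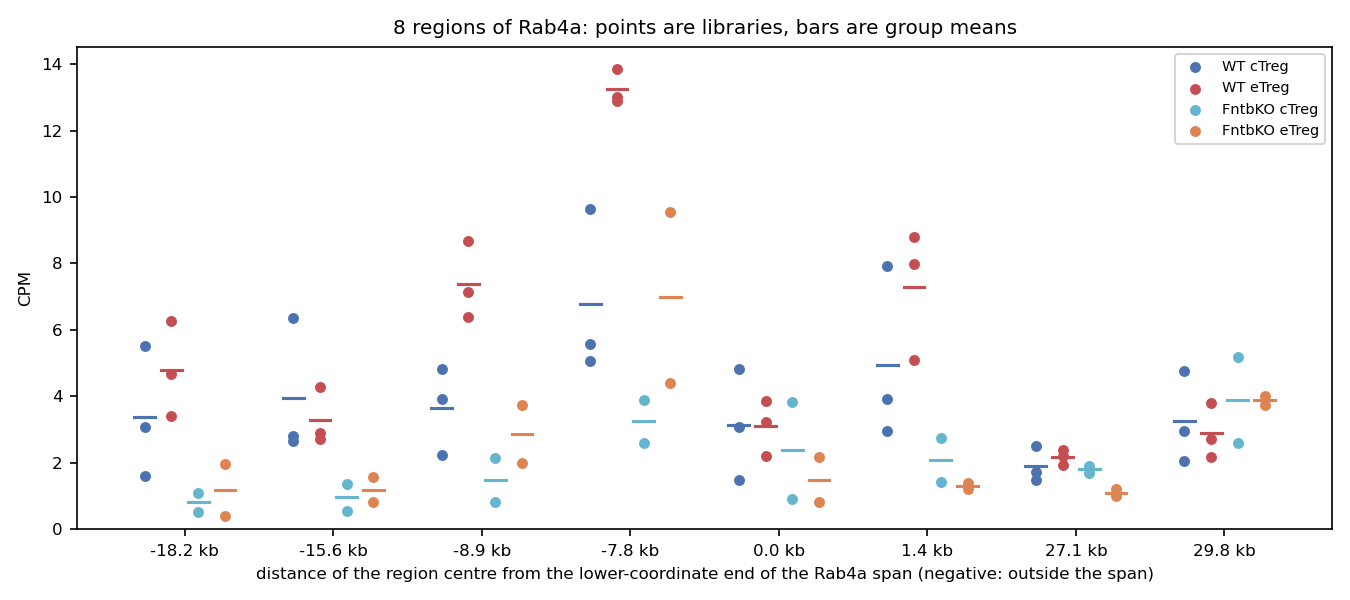
CPM of the 8 Rab4a regions by distance of the region's centre from the lower-coordinate end of the gene span in kb (negative values lie outside the span), with points for libraries and bars for group means. At 5 of the first 6 positions FntbKO was called lower on the average of both subsets; the exception is the region over the lower end of the span.

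Without WT cTreg 2 and FntbKO cTreg 1, 4 of the 8 genotype calls were kept: Rab26, Rab36 and the Rab4a regions at chr8:123787451-123787862 and chr8:123807003-123807396. Without FntbKO cTreg 1 alone, or FntbKO eTreg 1 alone, 3 regions passed. Marker lists were compared between genotypes too. Effector Treg markers (8 of 8 with a region) summed to 1221 to 1428 CPM in WT cTreg, 1504 to 1651 CPM in WT eTreg, 1091 to 1158 CPM in FntbKO cTreg and 1336 to 1434 CPM in FntbKO eTreg. Of their 110 tested regions, 12 were called lower in FntbKO on the average and 1 higher. The share called was 11.8%, against 3.99% of all regions (2.17% lower and 1.82% higher).

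Central Treg markers (8 of 8) summed to 3231 to 3449 CPM in WT cTreg, 2745 to 3040.3 CPM in WT eTreg, 3548 to 3691 CPM in FntbKO cTreg and 3214 to 3260 CPM in FntbKO eTreg. On the average of both subsets 12 of their 252 tested regions were called higher in FntbKO and 3 lower (5.95%, against 3.99% of all regions). For the smaller lists that follow, the shares of all regions are 2.17% lower and 1.82% higher. Myeloid markers (3 of 5, with none at Lyz2 and Csf1r) summed to 72.8 to 77.2 CPM in FntbKO cTreg and 90.9 to 92.6 CPM in FntbKO eTreg, below the WT values given above, and 4 of their 20 regions were called lower. The B cell markers with a region summed to 61.7 to 73.1 CPM in WT cTreg, 67.3 to 75.0 CPM in WT eTreg, 49.0 to 51.0 CPM in FntbKO cTreg and 54.9 to 63.1 CPM in FntbKO eTreg (2 of 14 regions called lower). Erythroid markers went the other way, with 46.6 to 47.9 CPM in FntbKO cTreg and 33.3 to 39.0 CPM in FntbKO eTreg (1 of 6 regions called higher). CD8 T or NK markers summed to 282.3 to 291.4 CPM in FntbKO cTreg and 235.8 to 247.0 CPM in FntbKO eTreg (1 of 34 regions called lower), and dendritic markers to 222.0 to 250.8 and 252.6 to 264.5 CPM (1 of 27 higher and 1 lower). The part of these cells in the RAB differences was not tested, and in bulk libraries a region open in fewer cells and a region less open in each cell cannot be told apart.

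Genes that load, unload, lipidate or read RAB proteins were examined beside the family. Their calls come from the edgeR fit of all 10 libraries. Whether they hold without single libraries, or without WT cTreg 2 and FntbKO cTreg 1, is not given here. The list for prenylation and recycling is wider than RAB lipidation. It also holds Fnta, Fntb, Pggt1b, Rce1, Icmt and Zmpste24, which are no part of the RAB geranylgeranyl transferase or its escort. Of this list, 12 of 13 genes had regions (50 tested). In WT eTreg against cTreg 0 of these were higher and 4 lower (8%, against 3.44% of all regions), all 4 assigned to Fntb itself. In FntbKO eTreg against cTreg 1 region of Chm, the escort protein of RAB prenylation, was higher (chrX:113074828-113075223, 7.19 ± 1.66 against 16.0 ± 1.75 CPM, log2 change 1.11, SE 0.27, adjusted p 0.0356). This was 2% of the list's regions, against 1.36% of all regions. Between genotypes, the regions of the list that passed within a subset were all assigned to Fntb: 2 lower in cTreg, and 2 lower and 1 higher in eTreg. The shares were 4% in cTreg and 6% in eTreg, against 0.568% and 0.35% of all regions. Fntb is the deleted gene, so these calls do not describe the rest of the list. On the average of both subsets 2 regions of the list were lower and 2 higher (8%, against 3.99% of all regions). Among the higher was another Chm region, chrX:113081590-113081978, with 2.88 ± 0.686 CPM in WT cTreg, 2.02 ± 0.932 CPM in WT eTreg, 3.84 ± 1.17 CPM in FntbKO cTreg and 6.11 ± 0.428 CPM in FntbKO eTreg (average log2 change 1.04, SE 0.29, adjusted p 0.0378).

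The list of RAB exchange factors also holds Sgsm3, which has a TBC domain, and names the same gene as both St5 and Dennd2b. Of its 36 symbols, 34 had regions (211 tested). Of these regions 5 were higher and 4 lower in WT eTreg (4.27% called, against 3.44% of all regions). In FntbKO eTreg 4 were higher and 0 lower (1.90%, against 1.36%). Ric1, part of an exchange factor for Rab6 proteins, was higher in eTreg at chr19:29523754-29524156, with 6.80 ± 2.36 against 14.7 ± 0.429 CPM in WT and 4.17 ± 0.487 against 11.9 ± 0.220 CPM in FntbKO (log2 changes 1.08 and 1.52, adjusted p 0.00916 and 0.00901). Dennd4c, an exchange factor for Rab10, was higher 34.593 kb from its span at chr4:86713498-86713925 in both genotypes (log2 changes 1.01 in WT and 1.08 in FntbKO, adjusted p 0.00592 and 0.0264). Between genotypes edgeR called 0 exchange factor regions in cTreg (22 at unadjusted p under 0.05) and 0 in eTreg (29), and on the average of both subsets 4 were higher and 4 lower (3.79%, against 3.99% of all regions). Unadjusted p under 0.05 was found for 12.4% of all regions in cTreg and 12.2% in eTreg.

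All 34 listed RAB GAPs had regions (299 tested), of which 2 were higher and 9 lower in WT eTreg (3.68%, against 3.44% of all regions) and 1 higher and 3 lower in FntbKO eTreg (1.34%, against 1.36%). These shares are close to those of all regions. Usp6nl, a GAP for Rab5 proteins, was lower at chr2:6337431-6338585, with 29.0 ± 2.11 against 16.6 ± 3.77 CPM in WT and 34.5 ± 3.37 against 20.9 ± 1.11 CPM in FntbKO (log2 changes -0.79 and -0.73, adjusted p 0.00499 and 0.0396). Another Usp6nl region, 27.004 kb from the span at chr2:6294999-6295753, was higher in WT eTreg, with 4.41 ± 0.370 against 9.44 ± 0.945 CPM (log2 change 1.09, SE 0.24, adjusted p 0.0133). Tbc1d4, a GAP for Rab10 in glucose transporter traffic, was higher at chr14:101594097-101594690 (log2 changes 1.0 and 1.19, adjusted p 0.0310 and 0.0408). Between genotypes edgeR called 0 GAP regions in cTreg (34 at unadjusted p under 0.05) and 0 in eTreg (41), and on the average 5 were higher and 3 lower (2.68%, against 3.99% of all regions).

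Of the RAB effectors, 43 of 47 genes had regions (272 tested), of which 5 were higher and 4 lower in WT eTreg (3.31%, against 3.44% of all regions), and 6 higher and 0 lower in FntbKO eTreg (2.21%, against 1.36%). Eea1, the tether that Rab5 recruits to early endosomes, was higher in FntbKO eTreg at chr10:95964390-95965150 (log2 change 2.04, SE 0.43, adjusted p 0.0156). In WT this region had 3.95 ± 1.48 CPM in cTreg and 5.14 ± 0.707 CPM in eTreg. Eea1 regions were called both ways in WT eTreg, higher at chr10:95973300-95973605 (1.16) and lower 97.166 kb from the span (-0.61). In cTreg 3 effector regions were lower in FntbKO (1.10%, against 0.568% of all regions). One was in Myrip, which links Rab27a to myosin, at chr9:120339937-120340647, with 38.7 ± 11.1 against 19.5 ± 2.09 CPM (log2 change -0.96, SE 0.17, adjusted p 0.00768), and the rest were in Fyco1, a Rab7 effector, at chr9:123814194-123814855 (-0.93, adjusted p 0.0238) and chr9:123806232-123806704 (-0.73, adjusted p 0.0442). The last of these also lies in the span of another gene. In eTreg edgeR called 0 effector regions between genotypes (33 at unadjusted p under 0.05). On the average of both subsets 4 effector regions were higher in FntbKO, in Bicd2, Rab11fip2 and Rab11fip3, and 7 lower, in Acap2, Fyco1, Lrrk1 and Myrip (4.04%, against 3.99% of all regions).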

How the data were processed

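The deposited table holds raw read counts of 10 libraries over regions common to them, per the file headers. Per the submitters' processing notes, the authors' tools were MACS2 2.1.1, Picard 2.9.4, Trimmomatic 0.36, bedtools and SAMtools, and the builds named are mm10 and GRCm38. The aligner and the merging of regions are not given in the sources used here. Most counts in a library (66.7% to 79.2%) were even numbers, so mates of a pair may be counted singly. Coordinates are printed as deposited; whether counting begins at 0 or at 1 is not given there.

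Regions were assigned to RefSeq spans (GRCm38.p6). The gene given for a region says where it lies, not what it controls. After TMM scaling, counts went into edgeR's quasi-likelihood test (version 4.0.16) in R 4.3.3 (robust, filterByExpr, 1 mean per group, 6 residual degrees of freedom), with Benjamini-Hochberg adjustment over 76216 regions. Groups of 2 libraries share the spread estimate of all groups. The SE printed for edgeR is the size of the log2 change divided by the square root of the test's F value. It is only a rough guide where the change depends on the prior count. DESeq2 1.42.0, limma 3.58.1 and other settings were alternatives. The test was checked on simulated data. The 2 RAB regions that were not tested, of Rab2a and Rab3c, had too few counts.

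Members and gene lists were chosen with earlier results of these data known. Named regions were all called ones, up to 12 per comparison, or the 3 with the smallest p where fewer than 3 were called, with the start region of the gene. For the averaged comparisons, added after seeing the data, all called regions were named. A lack of overlap between groups describes regions picked on the same values, so it is no separate support for them. The share of all regions without overlap is not given here. Some results for single markers are not reported here.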

Additional observations from a re-analysis of the deposited data

How the results depend on the processing

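Of 44 named values (a region in a comparison), 35 were called, and 7 of these passed whichever library was left out. Over all alternatives 713 values kept their side of the threshold, 160 lost it, 8 gained it and 0 changed sign. Without single libraries, the RAB calls ran from 1 to 8 for eTreg against cTreg in WT, 0 to 4 in FntbKO, 0 to 2 for FntbKO against WT in cTreg and 0 to 2 in eTreg, 0 to 0 for the interaction, 3 to 11 for the genotype average and 5 to 28 for the subset average. Without WT cTreg 2 and FntbKO cTreg 1 the counts were 9 (WT subsets), 0 (genotype in cTreg), 4 (genotype average) and 9 (subset average). At an adjusted p under 0.1 they were 9, 3, 13 and 30. For genotype in cTreg, DESeq2 gave 2, limma-voom 0, cyclic loess 2 and halved counts 2. For genotype in eTreg, DESeq2 gave 1, limma-voom 0, total count scaling 1, a minimum count of 30 gave 1, halved counts 1, and only regions in a span 1; the last gave 3 for the genotype average. The cause was not tested.

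Same-numbered libraries of different groups correlated in their deviations with r from -0.087 to 0.221 (median 0.098, 13 pairs). Other-numbered libraries had r from -0.221 to 0.121 (median -0.049, 24 pairs). These values do not decide whether the numbers mark pairs, because centring on such small groups itself shifts r. The labels do not state a pairing, and the main test used none. With a replicate block the calls were 6 and 1 (subsets in WT and FntbKO), 3 and 3 (genotype in cTreg and eTreg), 0 (interaction), 11 (genotype average) and 21 (subset average). It added the Rab4a region at 123797834 in FntbKO, those at 123787451 and 123790057 in the cTreg genotype test, that at 123787451 in the eTreg test, and Rab33a in WT. A depth of 5058328 to 15328775 counts leaves regions near 1 CPM with few counts in a library, such as the Rab26, Rab31 and Rab7b regions.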
